A study of Homo sapiens with 16 samples.

Results

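The collagen chain genes are the 44 protein-coding genes whose symbol is COL, a number, A and a number, out of 19356 protein-coding genes with transcripts in the deposited table. Every such gene in the annotation had transcripts there, 317 in all, and the transcript TPM (transcript abundance as a length-scaled share of a library) were summed for each gene. By class, 11 of the 44 are fibrillar collagens, 6 are basement membrane (type IV) collagens, 10 are FACIT collagens (fibril-associated collagens with interrupted triple helices) and 17 belong to other types. Expression was measured by RNA sequencing in human BJ fibroblasts at 4 stages of an isogenic model. The stages are primary BJ cells, immortalized cells (BJ hTERT+), transformed cells (BJ hTERT+ SV40+) and metastasizing cells (BJ hTERT+ SV40+ Ras-G12V). All later lines thus carry hTERT, the catalytic subunit of telomerase, the last 2 stages carry the SV40 Large-T oncogene, and only the last carries the mutated H-Ras. Each stage is 1 cell line, grown for 6 passages at atmospheric oxygen or at 3% oxygen, which the study calls moderate hypoxia, on 2 plates (a and b), giving 8 groups of 2 and 16 libraries. The duplicate plates are parallel cultures of 1 line, so that p-values measure the spread between plates, and the values of a stage are those of 1 line.

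Collagens are secreted proteins built from chains with a repeated glycine-containing motif that wind into a triple helix. Fibrillar chains assemble into the banded fibrils that give connective tissue its tensile strength, type IV chains form the network of basement membranes, and FACIT chains decorate the surface of fibrils. Fibroblasts are the main source of fibrillar collagen in skin, and the prolyl and lysyl hydroxylases that modify collagen chains use oxygen as a substrate.

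The labelled cell type was checked against its markers. Of 9 fibroblast markers, 6 (VIM, THY1, PDGFRB, S100A4, FN1 and FAP) were at or above 10 TPM in all 16 libraries. DCN and LUM, which are also fibril-binding proteoglycans, were at 375 TPM or more in all primary and immortalized libraries and at 69.7 TPM or less in all transformed and metastasizing ones, and PDGFRA was at 1.26 TPM or less in the latter. Markers of other cell types were mostly low but not all absent. Of 6 epithelial markers KRT5, KRT14 and CLDN4 were under 1 TPM in every library, whereas KRT19 was at 161 and 203 TPM and 192 and 143 TPM in primary cells at atmospheric and 3% oxygen and at 11.5 TPM or less later, and the summed list ranged from 0.455 to 204.8 TPM. Of 4 endothelial markers in the table CDH5, VWF and KDR were under 1 TPM in every library, TEK reached 10.1 and 10.3 TPM in primary cells at 3% oxygen, and the sum ranged from 0.272 to 10.4 TPM. Of 5 cartilage markers ACAN, MATN1 and CNMD were under 1 TPM in every library, with CNMD at 0 in all. SOX9 and MATN3 were highest in the metastasizing pair at 3% oxygen (21.6 and 8.87 TPM and 14.3 and 13.8 TPM), and the cartilage sum ranged from 3.75 to 36.1 TPM. The 5 blood markers were at most at 3.19 TPM in any library. The part of these markers in the results below was not tested. The metastasizing pair at 3% oxygen stood apart from the other pairs. Among expressed genes, 1301 of 11843 differed more than 2-fold between its plates, against 214 to 489 genes in the other 7 groups, and 9 of 24 expressed collagens did so (COL1A1, COL1A2, COL3A1, COL4A1, COL5A1, COL6A1, COL6A2, COL10A1 and COL16A1). For named genes whose calls rest on this pair, the log2 fold changes are given with and without each of its plates. A fit without 1 plate leaves a group of 1 plate, which adds nothing to the estimated spread. Calls or counts that hold in such a fit therefore do not measure the spread between the plates of that group. TPM hold no read counts, so the depth behind each value is unknown. TPM are also shares of a library, and fewer expressing cells cannot be told apart from less RNA per cell.

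The collagens together made up the largest share of the transcripts in primary cells and a smaller one in immortalized cells, and were lower again in transformed and metastasizing cells. Their summed TPM were 12572 and 12888 TPM against 11738 and 9284 TPM in primary cells, 6473 and 7617 against 7784 and 7167 in immortalized cells, 3568 and 3306 against 2209.6 and 1813 in transformed cells, and 3233 and 3142 against 1097 and 1919 in metastasizing cells, where each stage is given as plates a and b at atmospheric oxygen against plates a and b at 3% oxygen. This order is used for all values below. The primary libraries were above all others, at 1.26 and 1.29% of all TPM at atmospheric oxygen, and the metastasizing libraries at 3% oxygen, of which plate a was the lowest of all, were at 0.110 and 0.192%. Oxygen levels overlapped in the immortalized stage alone. In the primary, transformed and metastasizing stages both libraries at 3% oxygen were below both at atmospheric oxygen. Fibrillar chains held more of the sum than the other 3 classes together in 14 of 16 libraries, with shares of 34.2 to 73.5% of collagen TPM over all libraries, and the lowest shares were those of the metastasizing pair at 3% oxygen (34.2 and 49.7%). The basement membrane chains went from 670.4 and 695 TPM in primary to 159 and 174 TPM in immortalized cells at atmospheric oxygen and were at 329 and 312 TPM in transformed cells. With 2 libraries in each group, an exact two-sided permutation test of such a sum cannot give a p below 0.333, so the sums are given without a test.

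**Figure D1:**
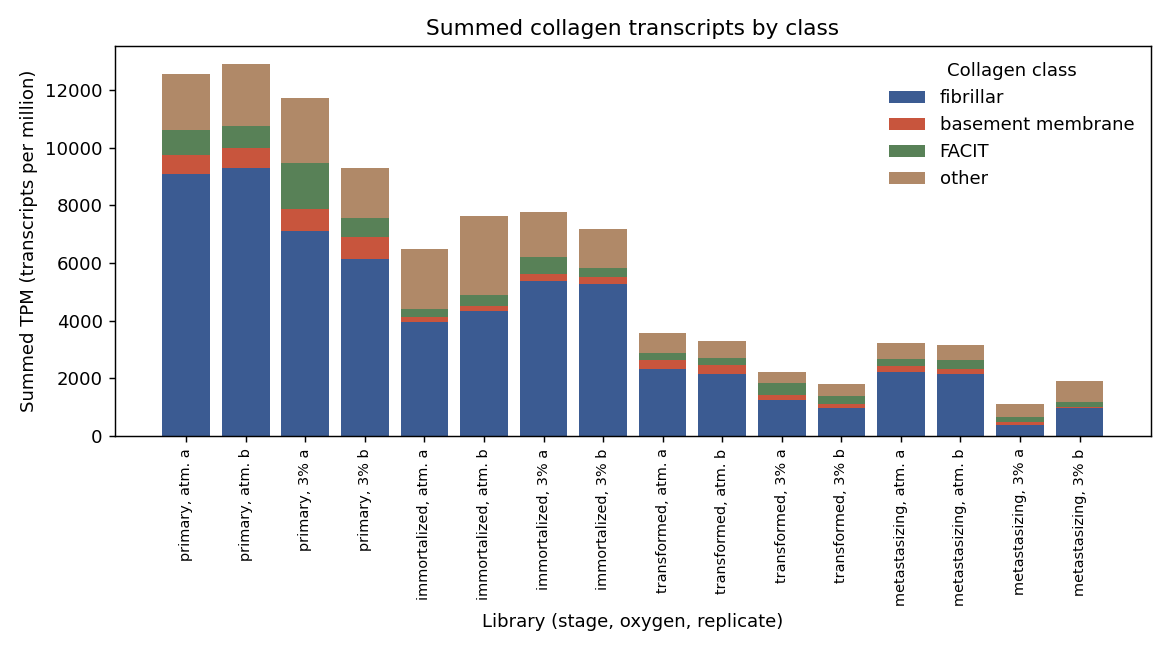
Stacked bars give the summed TPM of collagen chain genes in each of the 16 libraries (x axis: stage, oxygen level and plate, y axis: TPM), coloured by class. The sums run from 1097 TPM in plate a of metastasizing cells at 3% oxygen to 12888 TPM in plate b of primary cells at atmospheric oxygen, and the fibrillar class makes up most of the tall bars.

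Levels differed widely between members. Of the 44 genes, 15 were at or above 10 TPM in every library, 34 reached 1 TPM in at least 1 library and 2 (COL6A5 and COL22A1) were listed at 0 in all. The type I chain COL1A2 had the highest mean, 1845 TPM, followed by COL1A1 at 1281 TPM and the type VI chain COL6A3 at 577 TPM. TPM are scaled by transcript length, but the gene values also sum transcripts not annotated as protein-coding, some of them short. These held 79.1% of the mean TPM of COL18A1 and 0.468% of that of COL3A1, so levels can be set side by side between genes only roughly.

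**Figure D2:**
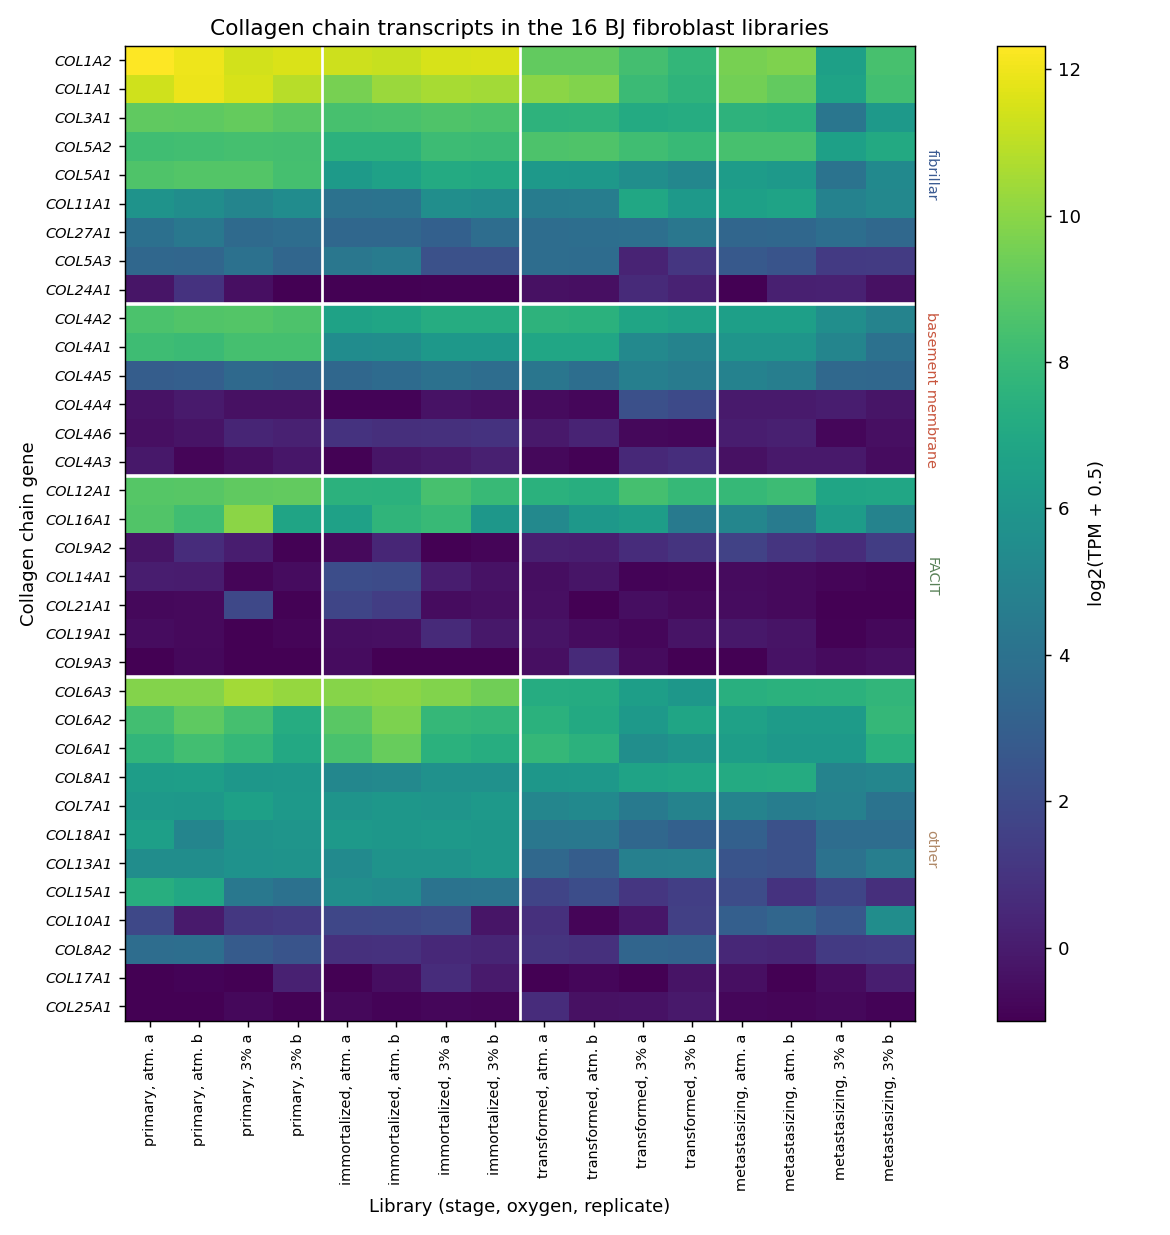
Colours give log2(TPM + 0.5) for the 34 collagen chain genes that reach 1 TPM in at least 1 library (y axis, grouped by class and ordered by mean level) in each of the 16 libraries (x axis). COL1A2, with a mean of 1845 TPM, is the brightest row, and the transformed and metastasizing columns are darker than the primary ones for COL1A2, COL1A1, COL3A1 and COL6A3.

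Changes were tested with limma on log2(TPM + 0.5) in 1 model over all libraries, and a gene was called when its adjusted p (Benjamini-Hochberg over all genes tested) was under 0.01 and its log2 fold change beyond 1. A comparison took only genes whose mean reached 1 TPM in 1 of its groups, which held for 24 to 29 of the 44 members. A member that entered only through its high group had to differ, so its log2 fold changes are given below without a test. Oxygen called few collagens in the early stages and many in the late ones. In primary cells 0 collagens rose and 2 fell at 3% oxygen among 24 tested, where 5.30% of all genes tested were called (2.78% higher and 2.52% lower). In immortalized cells 1 rose and 2 fell among 26, with 4.91% of all genes called (2.13% higher and 2.78% lower). In transformed cells 5 rose and 4 fell among 26, beside 7.48% of all genes (4.90% higher and 2.58% lower). In metastasizing cells 1 rose and 11 fell among 24, beside 7.66% of all genes (3.06% higher and 4.60% lower). The median log2 fold change of the tested collagens was 0.03, 0.04, -0.47 and -0.74 in these 4 stages, beside medians over all genes of 0.08, 0.11, 0.01 and -0.13. The metastasizing count was 8 with array weights and 1 when only the 4 libraries of the stage were fitted. Both plates of a group always had the same array weight, so these weights do not tell a better plate from a worse one. The other group of the comparison was under 1 TPM for 1 of the 3 collagens called in immortalized cells and 2 of the 9 in transformed cells, and for 0 of those called in primary and metastasizing cells.

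The steps between stages called from 3 to 16 members. At atmospheric oxygen, 2 collagens rose and 8 fell from primary to immortalized cells among 26 tested, where 12.2% of all genes were called (5.98% higher and 6.26% lower). From immortalized to transformed cells 2 rose and 8 fell among 26, beside 24.3% of all genes (13.2% higher and 11.2% lower), and from transformed to metastasizing cells 2 rose and 1 fell among 24, beside 4.12% (2.40% higher and 1.72% lower). At 3% oxygen, 0 rose and 5 fell in the first step among 25, beside 9.23% of all genes (4.19% higher and 5.04% lower). In the second step 4 rose and 12 fell among 27, beside 16.3% (8.96% higher and 7.38% lower), and in the last 1 rose and 9 fell among 26, beside 5.92% (1.99% higher and 3.93% lower). The last of these counts rests on the metastasizing pair at 3% oxygen: it was 5 with weighted libraries and 0 in a limma fit of only the 4 libraries compared, where 11 had an unadjusted p under 0.05. In these 6 steps 9 calls were of members whose other group was under 1 TPM: 2 of 10, 2 of 10 and 0 of 3 at atmospheric oxygen, and 1 of 5, 3 of 16 and 1 of 10 at 3% oxygen. Over all genes such calls made up 14 to 35.9% of the calls in the 10 comparisons. Consecutive steps share libraries, as do the oxygen comparisons and the steps, so their calls are not independent of each other. The median of the collagens was below that of all genes in each of the 6 steps, for example -1.12 against 0.11 from immortalized to transformed cells at 3% oxygen.

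**Figure D3:**
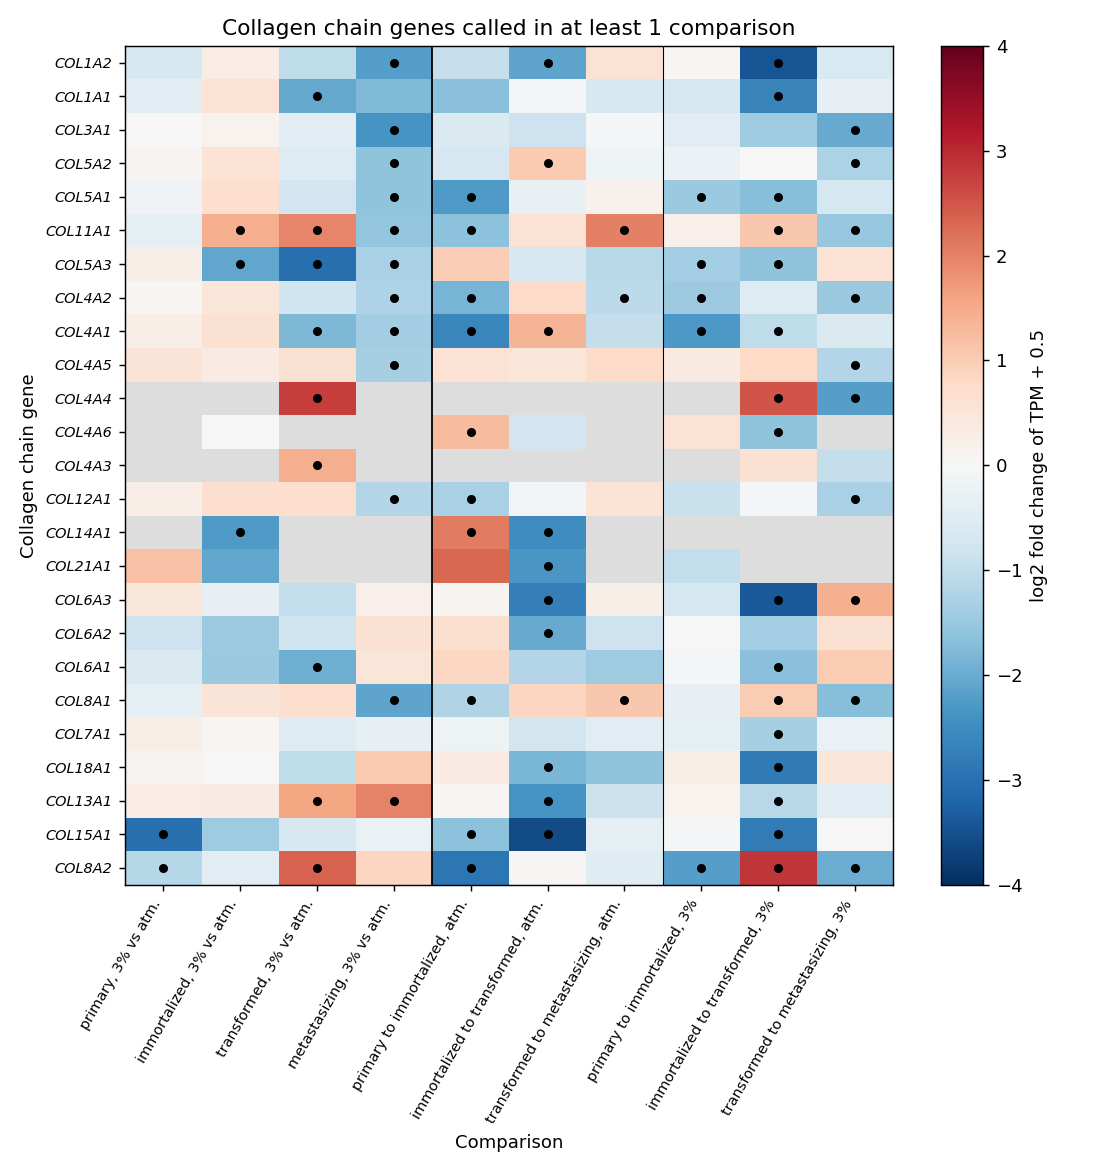
Colours give the log2 fold change of TPM + 0.5 for the 25 collagen chain genes called in at least 1 comparison (y axis), in the 4 oxygen comparisons and the 6 steps between stages (x axis); black dots mark calls and grey cells were not tested. Dots on blue cells (lower) outnumber dots on red cells (higher) in 8 of the 10 columns, with 11 lower and 1 higher in metastasizing cells at 3% oxygen, and 5 higher against 4 lower in transformed cells.

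The type I chains form the most abundant fibrils of skin and bone. COL1A2 (chr7:94024207-94060539, plus strand, GRCh37) measured 5109.9 and 4065 TPM against 2749.9 and 3061 TPM in primary cells, 2514 and 2331 against 2961 and 2984 in immortalized cells, 562 and 548 against 325 and 226 in transformed cells, and 783 and 866 against 92.9 and 344 in metastasizing cells. Every transformed and metastasizing library was below every primary and immortalized one. From immortalized to transformed cells it fell with a log2 fold change of -2.12 ± 0.43 (SE, adjusted p = 0.00151) at atmospheric oxygen and -3.45 ± 0.43 (SE, adjusted p = 9.08e-05) at 3% oxygen. In metastasizing cells the log2 fold change at 3% oxygen was -2.20 ± 0.43 (SE, adjusted p = 0.00373), and it was -1.26 without plate a and -3.14 without plate b. COL1A1 (chr17:48261462-48278993, minus strand) measured 2659 and 3902 TPM against 2949 and 1879 TPM in primary cells, 775 and 1294 against 1525 and 1444 in immortalized cells, 1045 and 883 against 266 and 200.3 in transformed cells, and 705 and 549 against 107 and 315 in metastasizing cells. Its transformed pairs did not overlap, and there it fell at 3% oxygen by 2.05 ± 0.43 (SE, adjusted p = 0.00437) on the log2 scale. Its metastasizing pairs did not overlap either, but the difference of -1.76 ± 0.43 (SE, adjusted p = 0.0122) missed the threshold. It also fell from immortalized to transformed cells at 3% oxygen (-2.68 ± 0.43 SE, adjusted p = 0.00053), whereas the same step at atmospheric oxygen gave -0.06 ± 0.43 (SE, adjusted p = 0.916). Transcripts not annotated as protein-coding held 6.25 to 49.4% of the COL1A1 TPM and 4.39 to 37.7% of the COL1A2 TPM of a library, and their share differed between plates of 1 group.

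COL3A1, the chain of type III collagen, which accompanies type I in soft tissue, measured 536 and 519.5 TPM against 572 and 479 TPM in primary cells, 354 and 355 against 408 and 379 in immortalized cells, 198 and 203 against 142 and 152 in transformed cells, and 193 and 184 against 18.0 and 71.8 in metastasizing cells. At each oxygen level both plates of a stage were below both plates of the stage before it, and the metastasizing pair at 3% oxygen lay below all other libraries. There it fell by 2.37 ± 0.43 (SE, adjusted p = 0.00248) on the log2 scale against atmospheric oxygen, with -1.38 without plate a and -3.35 without plate b. Against transformed cells at 3% oxygen the log2 fold change was -2.02 ± 0.43 (SE, adjusted p = 0.00626), a call that held in 10 of 26 alternatives. It was -1.03 without plate a of the metastasizing pair and -3.00 without plate b.

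Type V chains nucleate and limit the width of type I fibrils. COL5A1 (chr9:137533649-137736689, plus strand) measured 403 and 431 TPM against 430.2 and 339 TPM in primary cells, 75.3 and 97.3 against 139.6 and 132 in immortalized cells, 73.4 and 67.2 against 47.6 and 35.6 in transformed cells, and 82.3 and 74.5 against 16.2 and 39.0 in metastasizing cells. Every primary library was above every later one. It fell on immortalization at both oxygen levels (-2.28 ± 0.31 SE, adjusted p = 0.000215 at atmospheric oxygen, -1.49 ± 0.31 SE, adjusted p = 0.00426 at 3%), from immortalized to transformed cells at 3% oxygen (-1.71 ± 0.31 SE, adjusted p = 0.00111), and at 3% oxygen in metastasizing cells (-1.62 ± 0.31 SE, adjusted p = 0.00334). Its partner COL5A2 measured 296 and 310.1 TPM against 331 and 321 TPM in primary cells, 187 and 189 against 280.4 and 271 in immortalized cells, 385 and 401 against 306 and 250.2 in transformed cells, and 349.8 and 348 against 96.0 and 135 in metastasizing cells. COL5A2 was highest in transformed cells at atmospheric oxygen and lowest in the metastasizing pair at 3% oxygen, which did not overlap with any other group. It rose from immortalized to transformed cells at atmospheric oxygen (1.06 ± 0.14 SE, adjusted p = 6.35e-05) and fell at 3% oxygen in metastasizing cells (-1.61 ± 0.14 SE, adjusted p = 2.78e-05). COL5A3, the third type V chain, measured 10.4 and 10.0 TPM against 14.9 and 9.96 TPM in primary cells, 18.9 and 22.6 against 4.50 and 4.45 in immortalized cells, 13.1 and 12.5 against 0.739 and 1.68 in transformed cells, and 6.20 and 5.07 against 1.93 and 2.00 in metastasizing cells. It was lower at 3% oxygen in every later stage, without overlap, and fell with log2 fold changes of -2.09 ± 0.26 (SE, adjusted p = 0.000319) in immortalized, -3.02 ± 0.26 (SE, adjusted p = 2.82e-05) in transformed and -1.31 ± 0.26 (SE, adjusted p = 0.00367) in metastasizing cells. In primary cells the oxygen levels overlapped, with 0.25 ± 0.26 (SE, adjusted p = 0.504).

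COL11A1, a minor fibrillar chain that can join type V chains in a helix, was called in more comparisons than any other member (9 of 13). It measured 56.6 and 45.2 TPM against 33.5 and 44.7 TPM in primary cells, 15.5 and 16.5 against 47.0 and 42.4 in immortalized cells, 23.5 and 24.5 against 123 and 73.4 in transformed cells, and 94.7 and 104 against 29.3 and 36.5 in metastasizing cells. The oxygen difference changed sign between stages: the 3% libraries were the higher ones in immortalized and transformed cells and the lower ones in metastasizing cells, each without overlap. It rose at 3% oxygen by 1.45 ± 0.22 (SE, adjusted p = 0.00107) in immortalized and 1.96 ± 0.22 (SE, adjusted p = 0.000132) in transformed cells and fell by 1.59 ± 0.22 (SE, adjusted p = 0.000543) in metastasizing cells, on the log2 scale. At atmospheric oxygen it fell on immortalization (-1.63 ± 0.22 SE, adjusted p = 0.000216) and rose from transformed to metastasizing cells (2.03 ± 0.22 SE, adjusted p = 0.000178). COL27A1 was measured from 8.03 to 19.5 TPM over the 16 libraries and was called in no comparison.

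**Figure D4:**
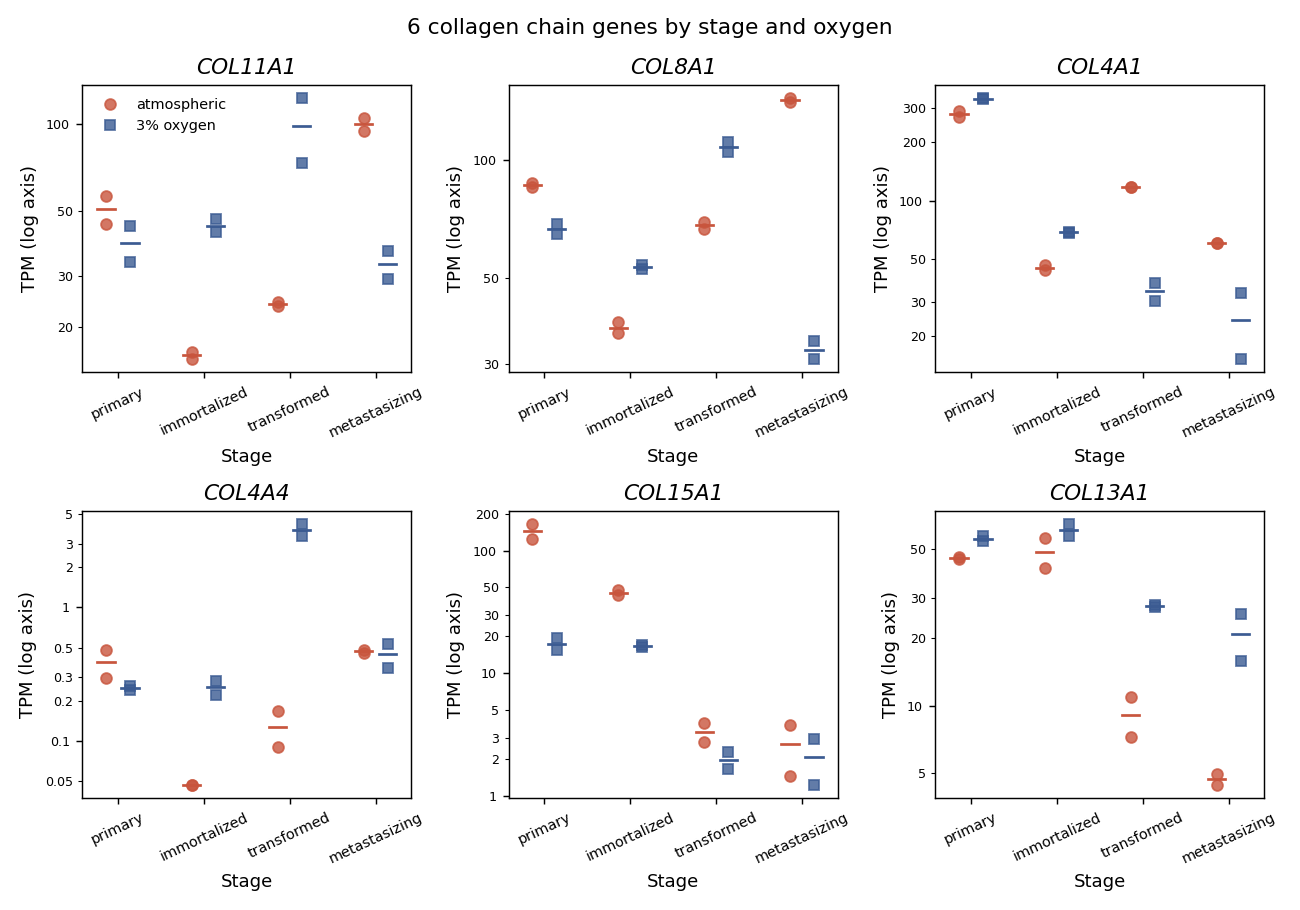
Points give the TPM of 6 collagen chain genes in each library on a log axis (y) by stage (x), with circles for atmospheric and squares for 3% oxygen, and bars for the mean of 2 plates. COL11A1 lies at 123 and 73.4 TPM in transformed cells at 3% oxygen against 23.5 and 24.5 at atmospheric oxygen, and the order is the opposite in metastasizing cells.

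Type IV chains are encoded in head-to-head pairs on opposite strands. COL4A1 and COL4A2, which together make the common network of basement membranes, lie at chr13:110801310-110959504, minus strand, and chr13:110958159-111165556, plus strand. COL4A1 measured 289 and 271 TPM against 339 and 334 TPM in primary cells, 43.8 and 46.5 against 68.7 and 68.5 in immortalized cells, 118 and 117 against 37.8 and 30.3 in transformed cells, and 60.5 and 60.2 against 33.4 and 15.2 in metastasizing cells. COL4A2 measured 373 and 415 TPM against 437 and 393 TPM in primary cells, 103 and 114 against 151 and 154 in immortalized cells, 192 and 179.6 against 114 and 98.2 in transformed cells, and 90.6 and 89.7 against 47.6 and 30.3 in metastasizing cells. Both were highest in the 4 primary libraries, without overlap with any later library. The metastasizing pair at 3% oxygen was below all other libraries for COL4A2, and for COL4A1 it overlapped with the transformed pair at 3% oxygen. On immortalization COL4A1 fell with a log2 fold change of -2.62 ± 0.26 (SE, adjusted p = 2.2e-05) at atmospheric and -2.28 ± 0.26 (SE, adjusted p = 7.54e-05) at 3% oxygen, and COL4A2 with -1.85 ± 0.17 (SE, adjusted p = 1.34e-05) and -1.44 ± 0.17 (SE, adjusted p = 0.000101). COL4A1 then rose into the transformed stage at atmospheric oxygen (1.37 ± 0.26 SE, adjusted p = 0.000879), where COL4A2 had 0.77 ± 0.17 (SE, adjusted p = 0.00244). At 3% oxygen COL4A1 fell by 1.78 ± 0.26 (SE, adjusted p = 0.00051) in transformed cells, and in metastasizing cells the log2 fold change was -1.40 ± 0.26 (SE, adjusted p = 0.00262) for COL4A1 and -1.24 ± 0.17 (SE, adjusted p = 0.000464) for COL4A2. Without plate b of the metastasizing pair at 3% oxygen the last 2 values were -0.84 and -0.92, so that both calls were lost, and without plate a they were -1.95 and -1.56.

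COL4A3 and COL4A4, best known from the kidney filter, form the next pair, at chr2:228029340-228179508, plus strand, and chr2:227867430-228029169, minus strand. COL4A4 measured 0.299 and 0.479 TPM against 0.260 and 0.243 TPM in primary cells, 0.0471 and 0.0474 against 0.281 and 0.223 in immortalized cells, 0.167 and 0.0902 against 4.23 and 3.43 in transformed cells, and 0.482 and 0.460 against 0.536 and 0.355 in metastasizing cells. COL4A3 measured 0.423 and 0.0598 TPM against 0.197 and 0.387 TPM in primary cells, 0.0347 and 0.351 against 0.435 and 0.612 in immortalized cells, 0.110 and 0.0277 against 0.949 and 1.18 in transformed cells, and 0.266 and 0.425 against 0.442 and 0.183 in metastasizing cells. The transformed pair at 3% oxygen was the highest group for both genes, and every other library was below 1 TPM. Both entered the comparisons through that group alone, so their log2 fold changes are a description: 2.78 for COL4A4 and 1.46 for COL4A3 at 3% against atmospheric oxygen in transformed cells. For COL4A4 they were 2.52 from immortalized to transformed and -2.19 from transformed to metastasizing cells at 3% oxygen. Non-coding transcripts held up to 95.1% of COL4A3. The pair on the X chromosome is COL4A5 and COL4A6. COL4A5 measured 7.15 and 7.59 TPM against 11.4 and 10.2 TPM in primary cells, 10.5 and 11.9 against 15.0 and 13.3 in immortalized cells, 18.5 and 13.7 against 26.9 and 22.7 in transformed cells, and 29.6 and 25.4 against 11.0 and 10.3 in metastasizing cells. It was lowest in the primary cells at atmospheric oxygen and fell at 3% oxygen in metastasizing cells (-1.32 ± 0.16 SE, adjusted p = 0.000252). COL4A6 measured 0.230 and 0.314 TPM against 0.783 and 0.670 TPM in primary cells, 1.44 and 1.25 against 1.27 and 1.40 in immortalized cells, 0.434 and 0.768 against 0.115 and 0.0967 in transformed cells, and 0.556 and 0.607 against 0.0983 and 0.234 in metastasizing cells. It was low throughout and its mean reached 1 TPM in the 2 immortalized groups alone. It entered through these, so its log2 fold changes of 1.26 on immortalization at atmospheric oxygen and -1.60 into the transformed stage at 3% oxygen are given without a test.

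Sequence between the divergent starts is shown for 2 of these pairs, where the 2 genes face away from a common stretch, read on the plus strand of GRCh37 with motif matches in capitals. The RefSeq starts of COL4A1 and COL4A2 lie 127 bases apart, and those of COL4A4 and COL4A3 419 bases apart. The first stretch is chr13:110959505-110959604, the bases from the start of COL4A1 to the nearest annotated exon of COL4A2 (78.0% G and C), and the second is chr2:228029170-228029339, the 170 bases between the annotated bounds of COL4A4 and COL4A3 (65.9%).
COL4A1 and COL4A2: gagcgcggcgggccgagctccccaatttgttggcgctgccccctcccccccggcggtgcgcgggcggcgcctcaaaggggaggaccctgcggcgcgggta
COL4A4 and COL4A3: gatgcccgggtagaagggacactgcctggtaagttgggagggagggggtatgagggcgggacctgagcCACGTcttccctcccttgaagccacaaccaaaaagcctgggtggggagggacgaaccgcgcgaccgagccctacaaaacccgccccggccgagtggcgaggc
The motifs searched on both strands were ACGTG and GCGTG (cores of the hypoxia response element), TATAAA and CAGACA (a SMAD element). The first stretch held no match, and the second held ACGTG once, on the minus strand, as the capitals show. The annotated bounds of COL4A1 and COL4A2 overlap by 1346 bases. RefSeq windows from 250 bases before to 50 after a start (GRCh38.p14) matched 32 of the 44 members, with 44 windows in all because some genes have several. COL1A1, COL1A2, COL3A1, COL5A2, COL6A1, COL8A1 and COL14A1 were among the members without a window, so the shares below do not cover them. ACGTG or GCGTG was present in 19 of these 44 windows (43.2%), beside 48.4% of all 35116 windows. The window of COL4A2 held GCGTG once, outside the stretch printed above, and that of COL4A1 held no match. TATAAA was in 18.2% of the collagen windows against 11.5% of all windows, and CAGACA in 11.4% against 16.9%. A match describes letters in a window and no site.

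Among FACIT genes, only COL12A1 and COL16A1 were at or above 10 TPM in every library. COL12A1 encodes type XII collagen, which binds fibrils in dense connective tissue. COL12A1 measured 454 and 460.2 TPM against 540.5 and 551 TPM in primary cells, 189 and 183 against 344 and 254 in immortalized cells, 184 and 165 against 330.5 and 245 in transformed cells, and 239 and 277 against 113 and 117 in metastasizing cells. Primary cells were highest and the metastasizing pair at 3% oxygen lowest, with no overlap with any other group in either case. It fell on immortalization at atmospheric oxygen (-1.29 ± 0.16 SE, adjusted p = 9.18e-05), at 3% oxygen in metastasizing cells (-1.16 ± 0.16 SE, adjusted p = 0.000429) and from transformed to metastasizing cells at 3% oxygen (-1.30 ± 0.16 SE, adjusted p = 0.000263). COL16A1 measured 416 and 302 TPM against 1032 and 109 TPM in primary cells, 98.9 and 208 against 249.9 and 65.4 in immortalized cells, 38.4 and 68.6 against 85.2 and 21.6 in transformed cells, and 34.5 and 23.0 against 80.7 and 30.8 in metastasizing cells. Its plates differed more than 2-fold in several groups, and it was called in no comparison. In plate a of primary cells at 3% oxygen, 893 TPM came from 1 transcript of 254 bases without a defined coding sequence, which was at 0.354 TPM in plate b. The coding form COL16A1-203 was at 78.3 and 48.3 TPM in these plates, and at 8.27 and 7.30 TPM in transformed cells at atmospheric oxygen.

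COL14A1, a chain that binds fibrils, was seen above 1 TPM only in immortalized cells at atmospheric oxygen. It measured 0.531 and 0.511 TPM against 0.0574 and 0.183 TPM in primary cells, 3.89 and 3.69 against 0.536 and 0.279 in immortalized cells, 0.198 and 0.344 against 0.0442 and 0.0728 in transformed cells, and 0.159 and 0.130 against 0.0760 and 0.0246 in metastasizing cells. Those 2 plates were above all other libraries. It entered each comparison through that group alone, so its log2 fold changes of 2.07 on immortalization, -2.48 into the transformed stage and -2.25 at 3% oxygen are given without a test. COL21A1 measured 0.117 and 0.122 TPM against 3.19 and 0.0352 TPM in primary cells, 2.93 and 2.18 against 0.187 and 0.237 in immortalized cells, 0.236 and 0 against 0.199 and 0.126 in transformed cells, and 0.180 and 0.134 against 0 and 0 in metastasizing cells. It was high in the same 2 plates and in 1 of 2 primary plates at 3% oxygen, and its log2 fold change from immortalized to transformed cells at atmospheric oxygen was -2.32, also without a test because the transformed group was under 1 TPM. COL9A2, a cartilage chain and the third of its class by mean level, measured 0.305 and 1.11 TPM against 0.566 and 0.0311 TPM in primary cells, 0.129 and 0.870 against 0 and 0.0755 in immortalized cells, 0.624 and 0.598 against 1.12 and 1.51 in transformed cells, and 2.57 and 1.60 against 1.10 and 2.17 in metastasizing cells. It was above 1 TPM in all 4 metastasizing libraries and in 3 others, and was called in no comparison.

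Type VI collagen forms beaded microfilaments around cells. COL6A3, its long chain, measured 937 and 923 TPM against 1409.8 and 1174 TPM in primary cells, 964 and 1033 against 899 and 688 in immortalized cells, 153 and 145 against 87.0 and 65.8 in transformed cells, and 171 and 183 against 188 and 217 in metastasizing cells. All 8 libraries before transformation were above all 8 after it, and it fell with a log2 fold change of -2.74 ± 0.15 (SE, adjusted p = 1.75e-07) at atmospheric and -3.37 ± 0.15 (SE, adjusted p = 6.89e-08) at 3% oxygen. It rose from transformed to metastasizing cells at 3% oxygen (1.41 ± 0.15 SE, adjusted p = 0.000169), where its plates of 188 and 217 TPM differed little. COL6A1 measured 218 and 310.3 TPM against 236 and 129.9 TPM in primary cells, 362 and 601 against 179 and 158 in immortalized cells, 230.2 and 185 against 47.7 and 58.7 in transformed cells, and 85.6 and 68.3 against 67.0 and 172 in metastasizing cells. COL6A2 measured 311 and 517 TPM against 335 and 151 TPM in primary cells, 480.2 and 822 against 236 and 219 in immortalized cells, 182 and 134 against 70.2 and 112 in transformed cells, and 96.9 and 79.2 against 79.4 and 229.7 in metastasizing cells. Both chains varied between plates in several groups, and plate b of the metastasizing pair at 3% oxygen was well above plate a for both. COL6A1 fell at 3% oxygen in transformed cells (-1.95 ± 0.41 SE, adjusted p = 0.00446) and from immortalized to transformed cells at 3% oxygen (-1.66 ± 0.41 SE, adjusted p = 0.00734), and COL6A2 fell in that step at atmospheric oxygen (-2.01 ± 0.50 SE, adjusted p = 0.00562).

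COL8A1 and COL8A2 encode the short network-forming chains of type VIII collagen, known from vessel walls and the cornea. COL8A1 measured 85.3 and 87.3 TPM against 64.7 and 68.8 TPM in primary cells, 36.0 and 38.4 against 53.8 and 52.7 in immortalized cells, 66.8 and 69.3 against 105 and 112 in transformed cells, and 141 and 144 against 30.9 and 34.4 in metastasizing cells. Its plates agreed closely, the metastasizing stage held both its highest group (atmospheric) and its lowest (3%), and it fell there by 2.12 ± 0.08 (SE, adjusted p = 3.47e-07) on the log2 scale. It fell on immortalization at atmospheric oxygen (-1.20 ± 0.08 SE, adjusted p = 1.62e-06), rose from transformed to metastasizing cells at atmospheric oxygen (1.06 ± 0.08 SE, adjusted p = 2.92e-05) and fell in that step at 3% oxygen (-1.72 ± 0.08 SE, adjusted p = 1.23e-06). COL8A2 measured 13.1 and 13.5 TPM against 6.68 and 4.92 TPM in primary cells, 1.32 and 1.37 against 0.925 and 0.809 in immortalized cells, 1.53 and 1.31 against 9.76 and 9.10 in transformed cells, and 0.916 and 0.808 against 1.89 and 2.11 in metastasizing cells. The oxygen levels did not overlap in any stage, with the 3% libraries lower in primary and higher in transformed cells. COL8A2 fell at 3% oxygen in primary cells (-1.15 ± 0.18 SE, adjusted p = 0.00109) and rose in transformed cells (2.37 ± 0.18 SE, adjusted p = 1.25e-05). It fell on immortalization at atmospheric oxygen, with a log2 fold change of -2.90 ± 0.18 (SE, adjusted p = 6.65e-07). At 3% oxygen the immortalized mean was under 1 TPM, and the log2 fold changes into and out of that stage, -2.19 and 2.86, are given without a test.

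COL15A1 and COL18A1 encode basement membrane proteoglycan collagens. COL15A1 measured 165 and 125 TPM against 19.4 and 15.4 TPM in primary cells, 47.7 and 43.1 against 16.3 and 16.9 in immortalized cells, 2.78 and 3.92 against 1.67 and 2.27 in transformed cells, and 3.82 and 1.46 against 2.93 and 1.23 in metastasizing cells. It was highest in primary cells at atmospheric oxygen and was at 3.92 TPM or less in all 8 transformed and metastasizing libraries. It fell at 3% oxygen in primary cells (-3.02 ± 0.38 SE, adjusted p = 0.000324), on immortalization at atmospheric oxygen (-1.65 ± 0.38 SE, adjusted p = 0.00556) and into the transformed stage at both oxygen levels (-3.59 ± 0.38 SE, adjusted p = 1.37e-05 and -2.80 ± 0.38 SE, adjusted p = 0.000154). In immortalized cells the oxygen levels did not overlap, and the difference of -1.42 ± 0.38 (SE, adjusted p = 0.0176) missed the threshold. The smooth muscle marker ACTA2 stood at 744 and 496 TPM in primary cells at atmospheric oxygen, 61.2 and 99.3 TPM in primary cells at 3% oxygen and 5.58 to 85.5 TPM in the later stages. The sum of the 4 smooth muscle markers ranged from 47.1 to 980.5 TPM over the libraries with only CNN1 at 10 TPM or more in all, and their part in these differences was not tested. COL18A1, whose cleavage gives endostatin, measured 91.9 and 33.0 TPM against 57.7 and 60.5 TPM in primary cells, 72.8 and 65.0 against 71.0 and 66.9 in immortalized cells, 19.0 and 19.3 against 10.4 and 8.09 in transformed cells, and 7.98 and 4.48 against 13.2 and 12.9 in metastasizing cells. It fell into the transformed stage at both oxygen levels (-1.82 ± 0.37 SE, adjusted p = 0.0016 and -2.84 ± 0.37 SE, adjusted p = 0.000126), and 55.3 to 94.9% of its TPM belonged to non-coding transcripts.

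COL13A1, a membrane-spanning collagen, measured 45.0 and 45.7 TPM against 54.0 and 57.0 TPM in primary cells, 40.9 and 56.0 against 57.0 and 64.6 in immortalized cells, 10.9 and 7.25 against 27.4 and 28.1 in transformed cells, and 4.94 and 4.43 against 15.9 and 25.6 in metastasizing cells. The 3% libraries were above the atmospheric ones in all 4 stages without overlap, and it rose at 3% oxygen in transformed (1.59 ± 0.23 SE, adjusted p = 0.000543) and metastasizing cells (2.00 ± 0.23 SE, adjusted p = 0.000179). It fell into the transformed stage at both oxygen levels (-2.36 ± 0.23 SE, adjusted p = 7.94e-06 and -1.12 ± 0.23 SE, adjusted p = 0.00255). COL7A1, the chain of the anchoring fibrils below the epidermis, measured 74.3 and 68.4 TPM against 95.1 and 73.8 TPM in primary cells, 59.2 and 64.7 against 61.3 and 70.3 in immortalized cells, 34.5 and 39.5 against 22.3 and 30.1 in transformed cells, and 30.7 and 24.1 against 28.2 and 16.4 in metastasizing cells. It was lower in every transformed and metastasizing library than in any earlier one, and the call was made in the step to transformed cells at 3% oxygen (-1.33 ± 0.24 SE, adjusted p = 0.000999), whereas at atmospheric oxygen that step gave -0.74 ± 0.24 (SE, adjusted p = 0.0199).

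The other calls that rest on the metastasizing pair at 3% oxygen were also computed without its plate a and without its plate b, in that order. For oxygen in metastasizing cells the log2 fold changes were -0.997 and -2.24 for COL5A1, -1.37 and -1.86 for COL5A2, -1.29 and -1.33 for COL5A3 and -1.43 and -1.75 for COL11A1. They were -1.13 and -1.18 for COL12A1, -2.04 and -2.19 for COL8A1, -1.37 and -1.28 for COL4A5 and 2.34 and 1.66 for COL13A1. The calls of COL5A1 and COL5A3 were lost without plate a. From transformed to metastasizing cells at 3% oxygen they were 1.51 and 1.31 for COL6A3, -1.64 and -1.79 for COL8A1, -1.28 and -1.33 for COL12A1, -2.33 and -2.06 for COL4A4 and -1.37 and -1.68 for COL11A1. In the same step they were -1.79 and -1.15 for COL4A2, -1.93 and -2.06 for COL8A2, -1.22 and -1.13 for COL4A5 and -1.04 and -1.52 for COL5A2. None of these values changed sign.

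Chains that share a helix did not keep a fixed ratio. The ratio of COL1A1 to COL1A2 TPM was 0.520 and 0.960 against 1.07 and 0.614 in primary cells, 0.308 and 0.555 against 0.515 and 0.484 in immortalized cells, 1.86 and 1.61 against 0.817 and 0.885 in transformed cells, and 0.900 and 0.634 against 1.15 and 0.917 in metastasizing cells. It was highest in the transformed pair at atmospheric oxygen and lowest in plate a of immortalized cells at atmospheric oxygen. COL5A1 over COL5A2 was 1.06 to 1.39 in the 4 primary libraries and between 0.142 and 0.515 in the 12 later ones, without overlap. COL4A1 over COL4A2 ranged from 0.309 to 0.849, with the lowest values in transformed cells at 3% oxygen. COL6A1 over COL6A2 ranged from 0.525 to 1.39 and COL6A3 over COL6A1 from 0.664 to 9.03. COL8A1 over COL8A2, computed in the 12 libraries with both at or above 1 TPM, ranged from 6.45 to 52.8, and was lowest in primary cells at atmospheric oxygen. These ratios are of RNA and are given as a description.

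The transcript forms of COL6A3 and COL12A1 were used unequally by the groups. COL6A3-203 contains 2 coding exons that COL6A3-208 lacks, at chr2:238296225-238296827 (exon 3, 603 bases) and chr2:238287279-238287878 (exon 5, 600 bases), GRCh37, minus strand, in the part that encodes repeated von Willebrand type A modules. COL6A3-203 made up 22.9 and 30.7% against 49.3 and 50.6% in primary cells, 47.8 and 48.0 against 60.3 and 59.4 in immortalized cells, 65.9 and 65.0 against 57.5 and 58.1 in transformed cells, and 65.8 and 64.5 against 71.3 and 71.6 in metastasizing cells of the main coding forms (mean of at least 10 TPM). It was below COL6A3-208 in primary cells at atmospheric oxygen, where that form made up 75.5 and 67.0%. In every other library, before and after transformation, it was the larger of these forms. The margin was small in primary cells at 3% oxygen, where COL6A3-208 made up 45.8 and 44.6%. COL12A1-205, a form of 3135 bases, made up 47.9 and 37.0% in primary cells at atmospheric oxygen and at most 10.9% elsewhere. Both primary libraries at atmospheric oxygen were above all 14 others. These forms were chosen after their values were seen and have no test.

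**Figure D5:**
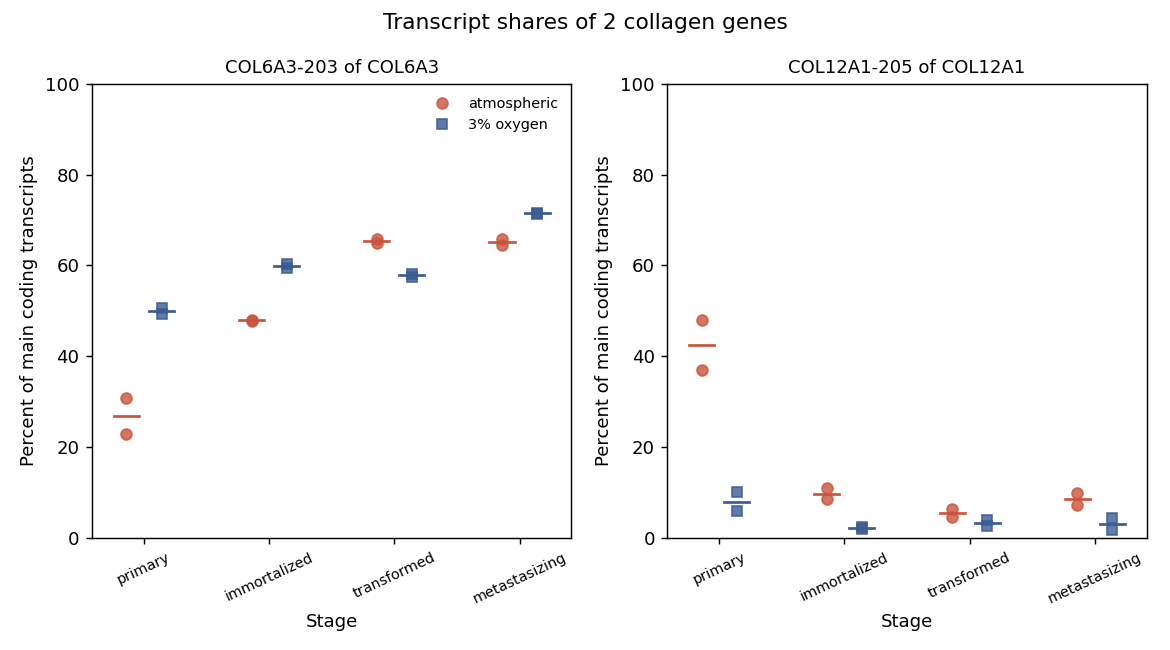
Points give the share (y axis, percent of the main coding transcripts of the gene) of COL6A3-203 and COL12A1-205 in each library by stage (x axis), with circles for atmospheric and squares for 3% oxygen, and bars for the mean of 2 plates. COL6A3-203 runs from 22.9 to 71.6%, and COL12A1-205 is highest in the 2 primary libraries at atmospheric oxygen.

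Genes that act on collagen were counted by list. Of 21 maturation enzymes (prolyl and lysyl hydroxylases, lysyl oxidases and chaperones), at 3% oxygen 3 rose and 1 fell in primary cells, 2 rose and 0 fell in immortalized cells, 5 rose and 0 fell in transformed cells, and 0 rose and 4 fell in metastasizing cells, among 20 or 21 tested. Over all genes 5.30, 4.91, 7.48 and 7.66% were called in these 4 stages. PLOD2, the hydroxylase for lysines of the telopeptides, rose by 2.24 ± 0.12 (SE, adjusted p = 1.7e-06) in primary and 1.96 ± 0.12 (SE, adjusted p = 8.54e-06) in immortalized cells, and P4HA1, a catalytic subunit of prolyl hydroxylase, rose by 1.29 ± 0.15 (SE, adjusted p = 0.000155) in transformed cells. The others called higher in transformed cells were P3H2, LOX, LOXL4 and PLOD2. PLOD2 was at 230 and 223 against 507 and 474 TPM there, P3H2 at 8.58 and 7.34 against 25.4 and 30.7 TPM, and LOXL4 at 2.48 and 2.17 against 6.68 and 5.38 TPM. LOXL4 and LOXL1, lysyl oxidases that cross-link fibrils, fell with log2 fold changes of -2.10 ± 0.22 (SE, adjusted p = 8.57e-05) and -1.31 ± 0.19 (SE, adjusted p = 0.000647) in metastasizing cells. Their 3% plates were at 3.93 and 7.08 TPM for LOXL4 and 73.1 and 124 TPM for LOXL1. Without plate a and without plate b, an alternative for these lists that was chosen after seeing the data, the values were -1.71 and -2.48 for LOXL4 and -0.931 and -1.69 for LOXL1. The LOXL1 call was lost without plate a, as was that of the prolyl hydroxylase P3H1, another of the 4 (-0.888 and -1.51). From immortalized to transformed cells 2 rose and 8 fell at atmospheric oxygen and 0 rose and 5 fell at 3% oxygen, beside 24.3 and 16.3% of all genes, with LOXL4 the largest at both (-6.08 ± 0.22 SE, adjusted p = 8.58e-09 and -4.03 ± 0.22 SE, adjusted p = 1.96e-07). Among 13 genes of procollagen secretion and processing, at most 2 rose and 2 fell in any of the 10 comparisons, in which 4.12 to 24.3% of all genes were called. These counts include calls of ADAMTS14, PCOLCE2 and TLL1 that entered through 1 group alone. ADAMTS2, which removes N-propeptides, fell on immortalization (-3.37 ± 0.19 SE, adjusted p = 3.94e-07 at atmospheric and -2.79 ± 0.19 SE, adjusted p = 1.89e-06 at 3% oxygen).

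Of 10 collagen receptors 7 were tested, and 0 rose and 5 fell from immortalized to transformed cells at atmospheric oxygen and 0 rose and 3 fell at 3% oxygen, where 24.3 and 16.3% of all genes were called (11.2 and 7.38% lower). The integrin subunit ITGA2 had -4.92 ± 0.49 (SE, adjusted p = 8.9e-06) and -4.79 ± 0.49 (SE, adjusted p = 2.16e-05), and ITGA11 -2.95 ± 0.32 (SE, adjusted p = 1.93e-05) and -2.69 ± 0.32 (SE, adjusted p = 6.99e-05). At 3% oxygen the receptor kinase DDR2 and ITGA1 rose in transformed cells (1.30 ± 0.11 SE, adjusted p = 2.65e-05 and 1.29 ± 0.18 SE, adjusted p = 0.000472) and ITGA1 fell in metastasizing cells (-1.25 ± 0.18 SE, adjusted p = 0.00069), with -1.25 and -1.25 without plate a and plate b. In all, 2 of 7 receptors rose in transformed cells, beside 4.90% of all genes, and 1 fell in metastasizing cells, beside 4.60%. Of 14 fibril-associated proteoglycans and glycoproteins, 0 rose and 7 fell among 11 tested on immortalization at atmospheric oxygen, and 1 rose and 5 fell among 10 into the transformed stage, beside 12.2 and 24.3% of all genes called. POSTN, which binds type I collagen, was at 63.5 and 58.5 TPM in primary, listed at 0 in both immortalized and at 5.43 and 5.28 TPM in transformed libraries at atmospheric oxygen. In the second of these steps LUM and DCN fell with log2 fold changes of -6.88 ± 0.44 (SE, adjusted p = 4e-07) and -6.29 ± 0.34 (SE, adjusted p = 1.32e-07). SPARC, a collagen-binding glycoprotein, fell at 3% oxygen in transformed cells (-1.49 ± 0.22 SE, adjusted p = 0.000576), and 4 of 8 tested fell in metastasizing cells, beside 4.60% of all genes called lower, among them LUM (-2.79 ± 0.44 SE, adjusted p = 0.00117), DCN (-2.53 ± 0.34 SE, adjusted p = 0.00042) and THBS2 (-1.58 ± 0.16 SE, adjusted p = 8.57e-05). The 3% plates there were at 4.00 and 17.1 TPM for LUM, 2.23 and 7.11 TPM for DCN and 35.9 and 51.9 TPM for THBS2. Without plate a and without plate b the log2 fold changes were -1.80 and -3.77 for LUM, -1.79 and -3.27 for DCN and -1.31 and -1.84 for THBS2. Of 15 TGF-beta genes, oxygen called 1 in primary, 0 in immortalized and transformed and 1 in metastasizing cells, beside 5.30, 4.91, 7.48 and 7.66% of all genes. From immortalized to transformed cells at atmospheric oxygen 1 rose and 5 fell, beside 24.3%. TGFB2 was at 14.1 and 12.4 TPM in primary, 0.782 and 0.813 TPM in immortalized and 47.1 and 43.7 TPM in transformed cells at atmospheric oxygen. POSTN and TGFB2 entered these steps through 1 group alone and are given without a test. The same holds for PRELP, counted among the 7 that fell on immortalization at atmospheric oxygen. It also holds for FMOD and ASPN, counted among the 5 that fell into the transformed stage there, so these counts include genes that had to differ.

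The oxygen response itself was compared between neighbouring stages as an interaction. Between primary and immortalized cells it was higher for 1 collagen and lower for 1 among 26 tested (1.86% of all genes called, 0.800% higher and 1.06% lower), and 0 were called when any 1 of 7 of the 8 libraries involved was left out (8 to 10 had an unadjusted p under 0.05 in limma). Between immortalized and transformed cells it was higher for 3 and lower for 4 among 29 (12.0% of all genes, 6.13% higher and 5.84% lower), and between transformed and metastasizing cells higher for 2 and lower for 7 among 26 (8.47%, 2.84% higher and 5.62% lower). The former counts COL4A4 and COL14A1 as higher, and the latter counts COL4A4 as lower. These genes entered only through the group where they are high, so their part in the counts is a description.

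The other 17 members stayed low or without calls. COL27A1 and COL10A1 are the only ones of them above 2 TPM in any library, 10 were under 1 TPM in every library, and the other 5 (COL9A3, COL17A1, COL19A1, COL24A1 and COL25A1) peaked between 1.01 and 1.41 TPM. The cartilage chains COL2A1, COL9A1 and COL11A2 were at or under 0.342 TPM in all 16 libraries.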

How the data were processed

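RNA was sequenced from 2 plates of each of 8 groups, as poly(A)-selected stranded libraries. The deposited values are TPM per transcript, which the authors made with kallisto 0.42.1 on a GRCh37 transcriptome. Of 180253 transcripts, 151453 (88.2% to 90.1% of a library's TPM) matched GENCODE 44 lifted to GRCh37 and were summed per gene, and 1 stray header line was skipped. TPM hold no counts, so the authors' count test was not repeated, no depth is known and the number of libraries limits the precision.

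limma 3.58.1 (R 4.3.3) with trended empirical Bayes was fitted to log2(TPM + 0.5), which understates changes of low genes, with 8 group means and 8 residual degrees of freedom. The model held 13146 protein-coding genes with a group mean of at least 1 TPM. Calls needed a Benjamini-Hochberg adjusted p under 0.01 over all genes of a comparison and a log2 fold change beyond 1. The model was tested on simulated data. Members called in at least 1 of 13 comparisons, or among the 3 highest of their class by mean, are named with all values, and of each other list at most 3 called genes per comparison, by size of change. The members, lists and classes were chosen with earlier results of these data known. Alternatives changed the pseudocount, filter, scaling, libraries, weights, trend, block and transcripts. Figures used matplotlib 3.10.9 and tables pandas 2.3.3 and numpy 2.4.6 in Python 3.11.15. Protein sequences were not analysed here, and 1 result on transcript forms is not reported here.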

Additional observations from a re-analysis of the deposited data

Results flagged for a closer look

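The change of the oxygen response (3% against atmospheric oxygen) between neighbouring stages met the thresholds of the limma interaction test for 13 collagen chain genes, in 18 instances. Those of COL4A4 and COL14A1 are a description and no test, as these genes entered only through the group where they are high. All values are differences of log2 fold changes, later stage minus earlier stage, and their causes were not tested.

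Between primary and immortalized cells the response of COL11A1 was 1.84 ± 0.31 (SE, adjusted p = 0.00636) higher and that of COL5A3 differed by -2.34 ± 0.36 (SE, adjusted p = 0.00373). Leaving out 1 library of these stages ended both calls for 7 of 8 libraries.

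Between immortalized and transformed cells the response was higher for COL8A2 (2.81 ± 0.25 SE, adjusted p = 4.34e-05), COL4A4 (2.32) and COL14A1 (1.79). It was lower for COL1A1 (-2.62 ± 0.61 SE, adjusted p = 0.00789), COL4A1 (-2.38 ± 0.36 SE, adjusted p = 0.000741), COL4A2 (-1.29 ± 0.24 SE, adjusted p = 0.00227) and COL5A2 (-1.06 ± 0.19 SE, adjusted p = 0.00214). The COL1A1 value passed in 10 of 26 alternatives. COL14A1 and COL4A4 have a mean above 1 TPM in 1 group of the 8 alone and entered through it, so their values are a description, here and between the next stages.

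Between transformed and metastasizing cells the response was higher for COL5A3 (1.71 ± 0.36 SE, adjusted p = 0.00633) and COL6A3 (1.16 ± 0.22 SE, adjusted p = 0.00343). It was lower for COL11A1 (-3.55 ± 0.31 SE, adjusted p = 5.96e-05), COL4A4 (-2.82), COL8A1 (-2.78 ± 0.12 SE, adjusted p = 9.75e-07), COL4A5 (-1.94 ± 0.23 SE, adjusted p = 0.000287), COL12A1 (-1.86 ± 0.22 SE, adjusted p = 0.000284), COL8A2 (-1.50 ± 0.25 SE, adjusted p = 0.00185) and COL5A2 (-1.11 ± 0.19 SE, adjusted p = 0.0023). All 9 use the metastasizing pair at 3% oxygen, whose plates differed most. Without plate a and without plate b of that pair, the differences were -3.40 and -3.71 for COL11A1, -2.96 and -2.69 for COL4A4, -2.71 and -2.86 for COL8A1, -1.98 and -1.90 for COL4A5 and -1.84 and -1.89 for COL12A1. They were -1.43 and -1.56 for COL8A2, 1.26 and 1.06 for COL6A3, 1.73 and 1.68 for COL5A3, and -0.864 and -1.35 for COL5A2. The COL5A2 call was lost without plate a and the COL5A3 call without either plate. The COL5A3 value passed in 9 of 26 alternatives.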

How the results depend on the processing

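None of the 98 called log2 fold changes reversed in any of the 26 alternatives run, but many of these could not reverse a value. Fits that changed only the weights, trend, replicate block or groups fitted left every log2 fold change as it was. Leaving out 1 library alters only the comparisons that use it. The 98 also include members that entered through 1 group alone and had to differ. Fitting only the groups compared ended 33 calls, array weights 12, no filter 9, only protein-coding transcripts 7 of 95, median-ratio rescaling 5, no trend 4, and each pseudocount and the replicate block 3, whereas a filter of 5 TPM ended 0 of the 84 it tested. Leaving out 1 library ended 4 to 17. Of the sums by class and group, 42 of 80 moved by more than the spread between plates when rescaled or limited to coding transcripts.

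Counts of called collagens moved by over 1.5 times as follows. Fitting only the groups compared, which leaves fewer degrees of freedom, gave 1 in place of 2 for oxygen in primary cells, 5 in place of 3 in immortalized and 1 in place of 12 in metastasizing cells, 6 in place of 3 for transformed to metastasizing cells at atmospheric oxygen and 0 in place of 10 at 3% oxygen, where limma gave 11 an unadjusted p under 0.05. The oxygen response difference gave 11 in place of 7 from immortalized to transformed and 3 in place of 9 from transformed to metastasizing cells under that fit. Array weights gave 7 for oxygen in immortalized cells, and 6 at atmospheric and 5 at 3% oxygen for transformed to metastasizing cells. Coding transcripts alone gave 5 for oxygen in immortalized cells.

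Leaving out 1 library at a time gave 1 to 2 calls for oxygen in primary cells (1 without plate a of primary cells at atmospheric oxygen), 2 to 5 in immortalized (5 without either metastasizing plate at 3% oxygen) and 7 to 13 in metastasizing cells (7 without either plate at atmospheric oxygen). It gave 3 to 5 for primary to immortalized cells at 3% oxygen (3 without plate a of primary cells there). The oxygen response difference had 0 to 3 calls from primary to immortalized (0 without 7 of the 8 libraries of those stages, with an unadjusted p under 0.05 in limma for 8 to 10 genes, and 1 without any plate of transformed or metastasizing cells at atmospheric oxygen) and 4 to 10 from immortalized to transformed cells (4 without plate b of transformed cells at 3% oxygen).

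The plate letters were checked as a replicate block. Deviations of plates with the same letter correlated across genes with r from -0.155 to 0.226, and the letters were not used to pair plates. The highest values, 0.226 and 0.147, were those from primary to immortalized cells at atmospheric and at 3% oxygen. Whether plates with the same letter share a batch was not tested. With the replicate block, 2, 3, 9 and 12 collagens were called for oxygen in primary, immortalized, transformed and metastasizing cells, 10, 10 and 4 for the steps at atmospheric oxygen, 5, 16 and 10 for those at 3% oxygen, and 1, 6 and 9 for the oxygen response differences, the first of which was 2 without the block.

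Depth is unknown, so values near 0 TPM have no stated precision. Each stage is 1 line and each group 2 plates. Short non-coding transcripts and near-identical forms share reads, which affects COL16A1, COL18A1, COL1A1 and COL1A2 among others. Transcripts not annotated as protein-coding held 79.1% of the mean TPM of COL18A1, 71.0% of COL16A1, 58.2% of COL7A1 and 56.0% of COL27A1. The shares were 29.2% for COL1A1 and 24.4% for COL1A2. For COL15A1 they ran from 50.7 to 89.9% in the transformed and metastasizing libraries.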

Other observations

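COL10A1, a network-forming chain of hypertrophic cartilage, measured 3.23 and 0.479 TPM against 1.74 and 1.88 TPM in primary cells, 3.10 and 3.20 against 3.71 and 0.357 in immortalized cells, 1.28 and 0.0716 against 0.364 and 2.39 in transformed cells, and 7.74 and 9.90 against 5.71 and 46.2 in metastasizing cells. In plate b of metastasizing cells at 3% oxygen 38.0 TPM came from COL10A1-203, a transcript of 303 bases, against 4.12 TPM in plate a. The gene was chosen here after its values were seen.

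COL12A1-203 lacks coding exons of 150 and 78 bases that the long form COL12A1-201 contains. The annotated forms also differ at both ends. COL12A1-203 lacks the noncoding first exon of 277 bases, and its own first and last exons have 73 and 11 bases, against 108 and 2232 bases in the exons they overlap. It made up 0.0290 and 0% against 0.293 and 0.133% in primary cells, 8.32 and 12.5 against 15.4 and 13.1 in immortalized cells, 10.9 and 11.2 against 14.2 and 12.1 in transformed cells, and 10.9 and 10.8 against 18.3 and 7.60 in metastasizing cells of the main coding forms of COL12A1, with the 4 primary libraries below all 12 later ones, and was also chosen after its values were seen.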
